A study of Mus musculus with 18 samples.

Results

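The genes described here encode 59 ribosome biogenesis factors, chosen by symbol from a fixed list, out of 55335 entries listed in each expression table. All 59 were found in all 18 libraries. They were grouped by the step at which they act: 7 genes of RNA polymerase I transcription, 8 of the small nucleolar ribonucleoprotein particles (snoRNPs), 21 of small subunit assembly, 20 of large subunit assembly, and 3 (Ncl, Npm1 and Ddx21) that serve several steps. Mouse embryos were profiled by Smart-seq2, which amplifies polyadenylated RNA from few cells, with 5 to 10 embryos lysed per tube. In the siRNA experiment, embryos labelled siCon or siEchs1 were collected at E2C (early 2-cell) and at L2C, an abbreviation the labels do not spell out, in 3 libraries per group and 12 in all. Echs1 encodes the mitochondrial enoyl-CoA hydratase, which hydrates crotonyl-CoA among other substrates. In the treatment experiment, wild-type zygotes received DMSO, sodium acetate or sodium crotonate and were collected at E2C, in 2 libraries per group and 6 in all. The labels used here give no strain, dose or hour of collection, and no genotype for the siRNA experiment. Nothing in the labels says whether replicates came from separate collections of embryos, so the p-values measure the spread between these libraries, which may be technical.

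Ribosomes are built in the nucleolus. RNA polymerase I, brought to the ribosomal DNA by UBTF and the initiation factor encoded by Rrn3, transcribes a long precursor RNA. Box C/D snoRNPs (Fbl, Nop56, Nop58) guide its methylation and box H/ACA snoRNPs (Dkc1, Nop10, Nhp2, Gar1) its pseudouridylation, while the small subunit processome and the PeBoW complex (Pes1, Bop1, Wdr12) direct the cuts and folding that release the subunits. In the mouse the zygote starts with maternal ribosomes and nucleoli that make little ribosomal RNA, and transcription of ribosomal DNA begins again during the 2-cell stage.

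Promoter sequences were available from RefSeq on build GRCm38.p6 for 52 of the 59 members, 63 promoters in all, each running from 250 bases before to 50 bases after the start. The 120 bases before the start are printed for 8 members that differed between siCon and siEchs1 at L2C, so that genes of both directions can be compared by eye. They were picked by hand once those values were known and are not the 8 largest differences: Tsr1 and Rrp9, for example, differed more than Rrn3 and are not shown. Capitals mark CACGTG (the E-box read by MYC and related factors), CCGGAAG (a core read by ETS factors) or GGGCGG (the GC box read by SP factors), each searched on both strands, so that CTTCCGG and CCGCCC are also capitalised. Nop2, Polr1b, Polr1c, Rrn3 and Nop16 were lower in siEchs1 at L2C, and Utp18, Bms1 and Noc4l were higher.
Nop2, chr6:125131763-125131882, plus strand: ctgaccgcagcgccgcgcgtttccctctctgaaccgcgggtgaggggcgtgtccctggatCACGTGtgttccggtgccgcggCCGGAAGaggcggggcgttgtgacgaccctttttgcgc
Polr1b, chr2:129100876-129100995, plus strand: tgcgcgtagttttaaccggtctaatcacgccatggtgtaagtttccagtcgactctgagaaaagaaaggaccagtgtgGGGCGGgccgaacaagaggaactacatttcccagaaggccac
Polr1c, chr17:46248046-46248165, minus strand: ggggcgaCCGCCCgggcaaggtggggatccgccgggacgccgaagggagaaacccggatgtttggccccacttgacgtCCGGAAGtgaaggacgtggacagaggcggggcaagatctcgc
Rrn3, chr16:13780579-13780698, plus strand: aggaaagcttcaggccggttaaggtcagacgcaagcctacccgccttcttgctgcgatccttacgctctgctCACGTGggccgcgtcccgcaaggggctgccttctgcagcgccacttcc
Nop16, chr13:54590075-54590194, minus strand: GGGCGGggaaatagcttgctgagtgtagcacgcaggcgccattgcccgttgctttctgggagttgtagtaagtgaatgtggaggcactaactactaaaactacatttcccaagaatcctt
Utp18, chr11:93885767-93885886, minus strand: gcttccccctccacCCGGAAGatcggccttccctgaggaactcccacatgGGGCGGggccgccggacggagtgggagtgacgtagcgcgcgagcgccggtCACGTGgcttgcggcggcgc
Bms1, chr6:118419418-118419537, minus strand: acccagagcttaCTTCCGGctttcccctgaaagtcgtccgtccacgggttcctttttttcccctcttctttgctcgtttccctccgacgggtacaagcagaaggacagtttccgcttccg
Noc4l, chr5:110653383-110653502, minus strand: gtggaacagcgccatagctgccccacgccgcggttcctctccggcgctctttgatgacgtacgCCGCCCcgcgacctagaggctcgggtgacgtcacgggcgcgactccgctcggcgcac

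Over the whole window, CCGGAAG occurred in 21 of the 52 matched members (40.4%), in 9.93% of all 27025 genes with a promoter and in 18.5% of the 11408 of them that were tested in the siRNA experiment. CACGTG occurred in 10 members (19.2%), against 8.09% of all genes and 11.1% of those tested, and in none of the 7 matched snoRNP genes but in 6 of 19 small subunit genes. GGGCGG occurred in 40 members (76.9%), against 38.2% and 62.3%. CCAAT, the box read by NF-Y, occurred in 21 members (40.4%), against 41.1% and 43.9%. Members of both directions carried the first 3 motifs: Nop2 and Utp18 both held CACGTG and CCGGAAG within the bases shown. These matches describe letters in a window and were not tested as sites.

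Levels are given as FPKM, fragments per kilobase of exon and scaled to the library's mapped fragments, which puts genes of different length on 1 scale. The median over the members' group means was 9.75 FPKM for siCon at E2C and 51.8 at L2C, and for siEchs1 it was 13.8 at E2C and 30.6 at L2C. In the treatment experiment it was 11.8 with DMSO, 7.34 with acetate and 4.89 with crotonate. Npm1, the abundant nucleolar chaperone nucleophosmin, was the highest member in all 7 groups, from 664 ± 97.1 FPKM (SD, n = 3) in siEchs1 L2C to 2212.3 FPKM in acetate. The 2 acetate libraries lay far apart, at 2862 and 1562.5 FPKM, the second below both DMSO libraries (1726.5 and 1597.9). The heatmap of all members shows most rows brighter in the 3 siCon L2C libraries than in the 3 siCon E2C libraries.

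**Figure D1:**
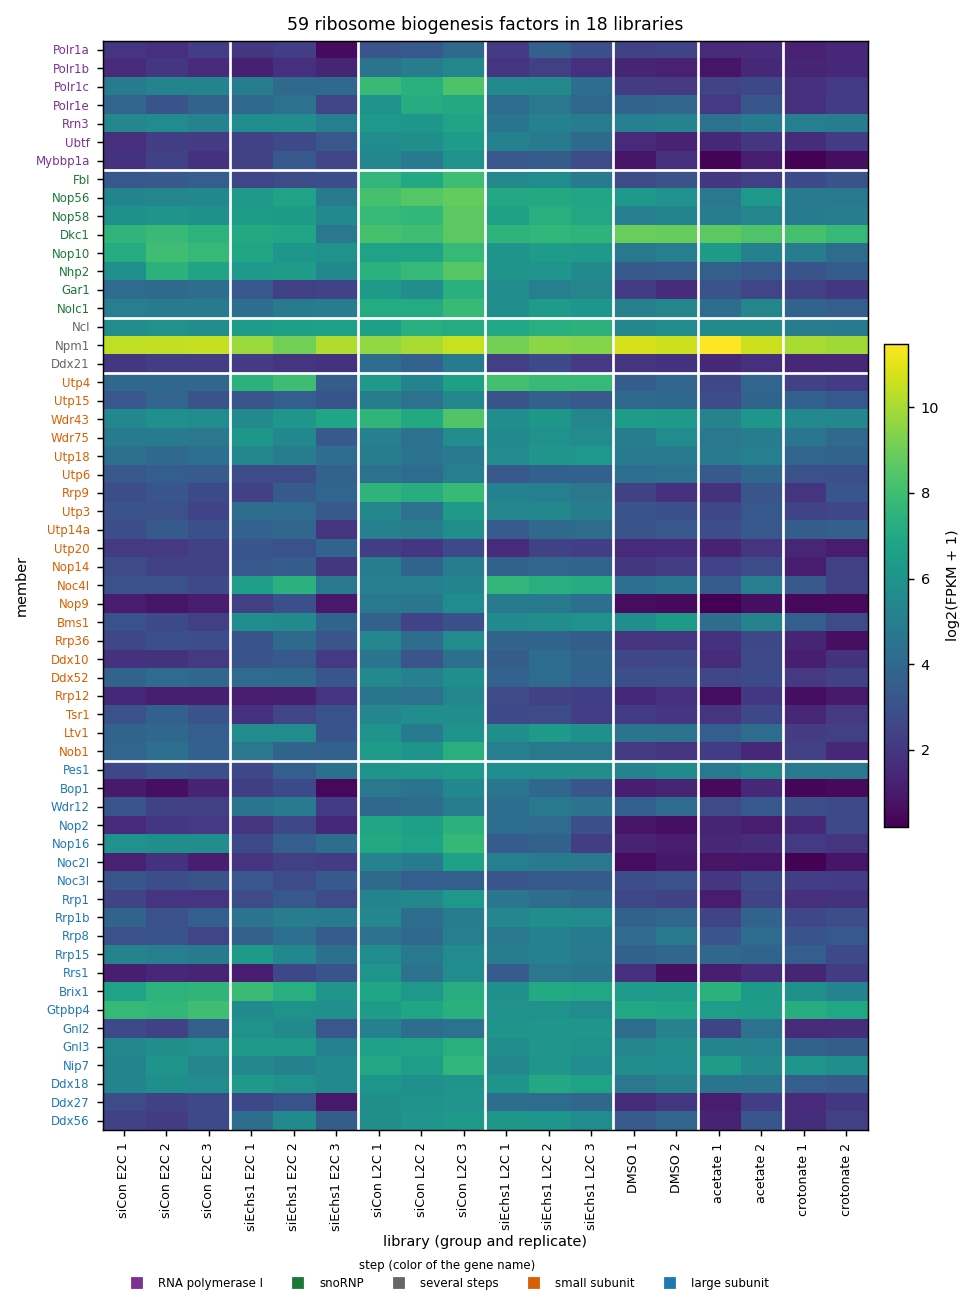
Level of each of the 59 members, log2(FPKM + 1), in each of the 18 libraries, with members in rows coloured by step and libraries in columns by group. The siCon L2C columns are the brightest for most members, while Npm1 is high in every column and Noc4l and Bms1 are brighter in every siEchs1 library than in the siCon libraries of the same stage.

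The targeted transcript, Echs1, was at 30.5, 27.5 and 32.5 FPKM in siCon E2C, 0.71, 5.88 and 3.82 in siEchs1 E2C, 38.6, 39.2 and 24.4 in siCon L2C, and 0.89, 4.32 and 4.25 in siEchs1 L2C, so the labels and the knockdown matched. Between 11982 and 16638 genes reached 1 FPKM per library. The third siEchs1 E2C library stood apart, with Spearman correlations as low as 0.74 with its own group, against 0.90 or more in each other siRNA group. It also had the lowest summed FPKM of 15 oocyte transcripts in its group (7781, against 17297 and 21743). The same sum for siCon was 12812 to 13632 at E2C and 2473 to 3508 at L2C, and for siEchs1 at L2C it was 18098 to 23915. Oosp1 and Oog1 made up most of the siCon E2C sum and were lower in every siEchs1 E2C library (Oosp1 at 3475, 2263 and 3363 FPKM against 7002, 6525 and 7506). The third siEchs1 E2C library was above every siCon E2C library for Zp1, Zp2, Mos, Gdf9, Figla, Nobox, Zar1, Khdc3 and Gja4. Gdf9, for example, was at 292 against 207, 179 and 196. For Zp3, Bmp15, Nlrp5 and Npm2 that library lay within the siCon E2C range (Bmp15 at 923 against 1018, 768 and 779). The summed FPKM of 10 markers of 2-cell embryos was 2059.5 to 2155 for siCon at E2C and 1239.7 to 1791 at L2C, but 679 to 994 for siEchs1 at E2C and 261 to 407 at L2C. Mitochondrially encoded transcripts took 13.1% to 17.1% of all FPKM for siCon at E2C and 7.62% to 11.2% at L2C, against 1.70% to 10.4% for siEchs1 at E2C and 0.83% to 2.28% at L2C. The 12 cumulus and granulosa markers together reached at most 11 FPKM in any library, with Amh at 0 in all libraries of every E2C group. The 7 blood markers summed to between 66.2 and 84.9 FPKM for siCon at E2C and between 137 and 158 at L2C, and to at most 28.1 in the siEchs1 groups. In siCon the sum came mostly from Hba-a1 and Hba-a2, and at L2C also from Cd74 (64.2, 21.7 and 14.8 FPKM). Hbb-bs, Hbb-bt and Ptprc were below 1 FPKM in every siCon library. The 7 oviduct markers summed to between 129 and 190.1 FPKM for siCon at L2C and to at most 37.3 in every other group. Epcam gave most of the siCon L2C sum (91.96, 169 and 177 FPKM), and Krt18 was at 28.7, 14.8 and 0.60. Ovgp1 was at 1.46, 2 and 1.95 in those libraries and Pax8 at 0. The part of these values in the results on ribosome biogenesis genes was not tested. Because each tube holds whole embryos, fewer embryos, fewer cells and less RNA per cell cannot be told apart.

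The first comparison asked how the factors changed from E2C to L2C in siCon embryos. Most rose: 46 of 59 members were higher at L2C and 1 was lower at an adjusted p under 0.05 (limma, Benjamini-Hochberg adjustment over all 17652 genes tested), where 35.8% of all genes tested were higher and 14.4% lower. All 59 passed the filter on low values. The median member change was 2.11 on the log2(FPKM + 1) scale, on which every log2 value here is given and which understates the change of low genes. For all genes the median was 0.51. The largest change was that of Nop2, which rose 46.6-fold (folds are ratios of mean FPKM). All 7 RNA polymerase I genes rose, as did 6 of 8 snoRNP genes, 2 of the 3 that serve several steps, 16 of 21 small subunit genes and 15 of 20 large subunit genes. For 50 members every L2C library was above every E2C library, and for 1 every L2C library was below (all genes tested: 42.8% and 21%).

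Among the genes of RNA polymerase I, Polr1b, the second-largest subunit (chromosome 2, 129100995 to 129126594, plus strand, build GRCm38), was at 1.98, 2.93 and 1.91 FPKM in the siCon E2C libraries and at 22.4, 30.2 and 40.9 in the siCon L2C libraries. No library of the 2 groups overlapped, and the change was 3.27 ± 0.33 (SE) on the log2 scale (adjusted p = 1.47e-05). Ubtf, the factor that opens ribosomal DNA for transcription, was at 2.43, 3.98 and 3.66 FPKM at E2C and at 51.1, 55.6 and 85.1 at L2C, a 19.0-fold rise of the mean (log2 3.88 ± 0.37 (SE), adjusted p = 9.8e-06). Mybbp1a, a nucleolar regulator of the polymerase, rose 13.5-fold, Polr1e 9.89-fold and Polr1c, a subunit shared with RNA polymerase III, 6.82-fold. The catalytic subunit Polr1a, at 2.68, 2.35 and 3.81 FPKM and then 8.16, 8.86 and 15.7, was the lowest of this step at L2C, and rose by 1.56 ± 0.50 (SE) (adjusted p = 0.0202). Rrn3 already stood at 41.4, 49.2 and 36.5 FPKM at E2C and reached 73.2, 67.98 and 110.1, which made it the member of this step with the smallest rise, 0.95 ± 0.32 (SE) (adjusted p = 0.0259). Its groups still did not overlap.

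Fbl, the box C/D methyltransferase fibrillarin (chromosome 7, 28169710 to 28179269, plus strand), was at 9, 9.29 and 11.02 FPKM at E2C and 194, 131 and 248 at L2C, a 19.5-fold rise (log2 4.11 ± 0.33 (SE), adjusted p = 3.98e-06). Its partners Nop56, from 38.5, 39.1 and 43.6 to 298, 368 and 447 FPKM, and Nop58, from 58.05, 64.8 and 56.5 to 214, 205 and 400.3, rose 9.18-fold and 4.57-fold. All 3 box C/D genes thus rose without overlap between the stages. Nolc1, the snoRNP chaperone Nopp140, rose 5.88-fold, and the box H/ACA genes Gar1 and Nhp2 rose 5.8-fold and 2.22-fold, Nhp2 with 1 E2C library above the lowest L2C library. Dkc1 and Nop10 were not called. Dkc1, the pseudouridine synthase dyskerin, was at 189, 219.6 and 178 FPKM at E2C and 297, 262 and 402 at L2C, without overlap (log2 0.69 ± 0.51 (SE), adjusted p = 0.278). Nop10 was at 145, 262 and 215 and 104, 108 and 217 FPKM (log2 -0.58 ± 0.38 (SE), adjusted p = 0.222), with groups that overlapped.

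Of the 3 factors of several steps, the RNA helicase gene Ddx21 rose from 3.03, 3.79 and 3.75 to 18.03, 12.6 and 28.8 FPKM (log2 2.13 ± 0.34 (SE), adjusted p = 0.000302). Ncl, nucleolin, rose from 51.5, 59.4 and 52.5 to 95.6, 154 and 139 FPKM (log2 1.21 ± 0.28 (SE), adjusted p = 0.00358). Npm1 was not called: it was at 1335, 1398 and 1448 FPKM at E2C and 800.4, 1066 and 1481 at L2C, with overlapping groups and adjusted p = 0.376.

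In the small subunit group, Rrp9, the U3 snoRNP protein (chromosome 9, 106475963 to 106485424, plus strand), had the largest rise of its step on the log2(FPKM + 1) scale. It went from 6.41, 8.31 and 5.72 to 185, 148 and 225 FPKM, 27.3-fold (log2 4.57 ± 0.38 (SE), adjusted p = 5.11e-06). Rrp12, an export factor of pre-ribosomes, rose from 1.72, 1.23 and 1.20 to 23.4, 20.2 and 40.3 FPKM, and Nop9, from 1.17, 0.79 and 1.12 FPKM, rose 32.1-fold. Nob1, the endonuclease that makes the last cut at the 3' end of the 18S RNA, rose from 13.7, 19.9 and 12.2 to 82.8, 63.99 and 153 FPKM (log2 2.56 ± 0.39 (SE), adjusted p = 0.000182). These 4 genes were separated between the stages in every library. The 5 small subunit genes that were not called were Utp4, Utp18, Utp20, Wdr75 and Bms1. Utp4, a subunit of the UtpA complex that binds the nascent precursor, was at 15.2, 14.7 and 14.1 FPKM at E2C and 78.2, 38.6 and 96.95 at L2C. Those groups did not overlap, but the adjusted p was 0.0561. The GTPase gene Bms1 stayed low, 7.22, 5.52 and 4.08 FPKM and then 11.96, 4.48 and 6.79 (adjusted p = 0.587), and the scaffold gene Utp20 was lowest of all members at L2C, 3.86, 2.99 and 5.44 FPKM after 3.35, 3.20 and 4.31 (adjusted p = 0.801).

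In the large subunit group, Nop2, a 28S RNA methyltransferase (chromosome 6, 125131909 to 125144753, plus strand), was at 2.03, 3.04 and 3.21 FPKM at E2C and 114, 97.1 and 175 at L2C (log2 5.08 ± 0.43 (SE), adjusted p = 5.19e-06). All 3 PeBoW genes rose. Pes1 went from 5.29, 7.81 and 6.85 to 63.9, 66.03 and 76.1 FPKM (10.3-fold) and Bop1 from 1.04, 0.57 and 1.52 to 25.7, 22.3 and 43.2 (29.1-fold). Wdr12 went from 8.26, 4.45 and 4.02 to 14.96, 17.1 and 30.9 (3.77-fold, adjusted p = 0.0276), the smallest change of the complex. Rrp1 rose 15.1-fold, and the helicase genes Ddx27 and Ddx56 rose 11.6-fold and 14.9-fold. The nucleolar GTPase gene Gnl3, nucleostemin, which started from 43.1, 53.9 and 58.6 FPKM, reached 101, 103 and 157 (log2 1.18 ± 0.35 (SE), adjusted p = 0.0137). Noc3l, Ddx18, Rrp15 and Brix1 were not called. Gtpbp4, another GTPase of pre-60S particles, was the single member that fell: its E2C libraries were at 217, 206 and 256 FPKM and its L2C libraries at 86.4, 112 and 162 (log2 -0.95 ± 0.30 (SE), adjusted p = 0.0184). That call was lost without the third siCon E2C library or without the first or the second siCon L2C library, and after rescaling without mitochondrial and ribosomal RNA. The rise of the group as a whole was smaller when libraries were put on 1 common distribution: quantile normalization moved the median change of all genes from 0.51 to -0.01 and that of the members from 2.11 to 1.47. Under it 37 members were higher and 1 lower, and of all genes 4192 were higher and 4243 lower, against 6326 and 2544 before. A total that differs between the stages is not visible in FPKM, which is relative to each library.

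**Figure D2:**
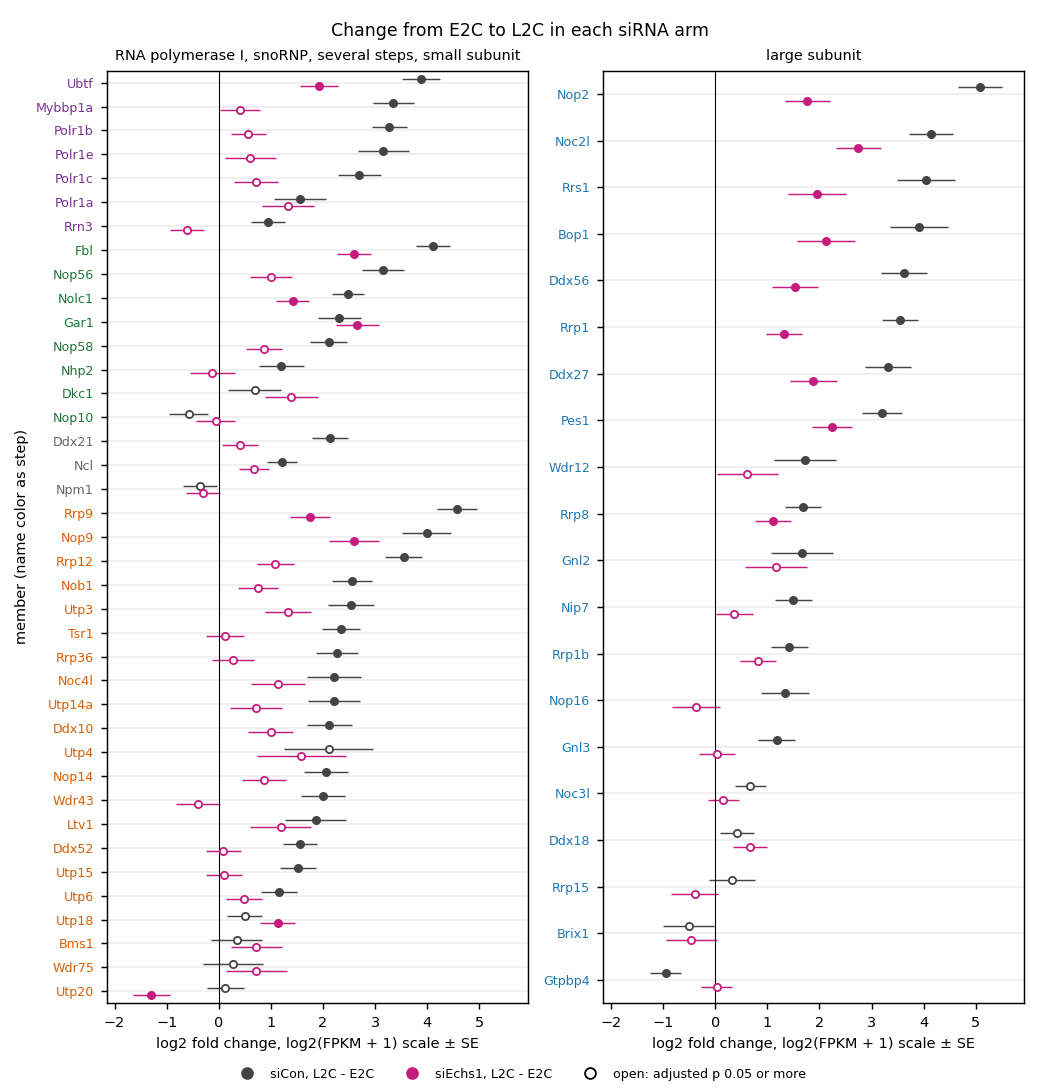
Change from E2C to L2C of each member on the log2(FPKM + 1) scale (x axis, point with its SE), in siCon (dark) and in siEchs1 (pink), with members on the y axis by step and filled points for an adjusted p under 0.05. In siCon 46 members lie to the right of 0 with filled points and Gtpbp4 to the left, while in siEchs1 16 filled points lie to the right and Utp20 to the left.

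In siEchs1 embryos 16 of 59 members were higher at L2C and 1 was lower, where 11.8% of all genes tested were higher and 2.73% lower. The median member change was 0.75, against 0.23 for all genes. In the RNA polymerase I group 1 of 7 genes rose (Ubtf). Of the rest, 3 of 8 snoRNP genes (Fbl, Gar1 and Nolc1), 3 of 21 small subunit genes (Utp18, Rrp9 and Nop9) and 9 of 20 large subunit genes rose, and none of the 3 of several steps did. Every siEchs1 L2C library was above every siEchs1 E2C library for 28 members and below for 1 (all genes tested: 22.9% and 8.07%).

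Fbl rose from 4.89, 5.92 and 6.48 FPKM to 44.05, 50.2 and 28.2 in siEchs1 (log2 2.60 ± 0.33 (SE), adjusted p = 0.000584), and Gar1 from 8.50, 4.03 and 4.60 to 50.02, 31.9 and 39.2 (log2 2.66 ± 0.41 (SE), adjusted p = 0.0016). Neither gene had overlapping groups, although all their siEchs1 L2C libraries were below all their siCon L2C libraries. Ubtf rose from 4.37, 5.45 and 8.65 to 34.6, 28.4 and 16.3 FPKM (log2 1.92 ± 0.37 (SE), adjusted p = 0.00522). Pes1 rose from 5.18, 10.8 and 19.4 to 50.5, 53.3 and 54.2 FPKM (log2 2.23 ± 0.38 (SE), adjusted p = 0.00285), close to its siCon L2C level. Noc2l, of the nucleolar NOC complexes that accompany early large subunits, rose from 2.73, 4.08 and 3.44 to 32.2, 28.5 and 24.9 FPKM and Nop9 from 3.99, 6.65 and 0.94 to 28.5, 26.5 and 18.9, with adjusted p = 0.00166 and 0.00387. Utp20 fell, from 8.45, 7.22 and 13.3 to 1.89, 4.44 and 3.77 FPKM (log2 -1.30 ± 0.36 (SE), adjusted p = 0.0293). The count of higher members was 8 without the first and 7 without the second siEchs1 L2C library, where 5.57% and 6.91% of all genes were higher. It was 8 after quantile normalization (6.09% of all genes) and 6 when the 6 siEchs1 libraries were fitted alone (5.15%). Utp20 was not called without the third siEchs1 E2C library, without the first or the third siEchs1 L2C library, after rescaling or in the 6 libraries alone. Quantile normalization moved the split of all genes from 2090 higher and 482 lower to 1075 and 785.

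The second question was what the siRNA against Echs1 changed at each stage. At E2C the factors moved in both directions: 6 of 59 were higher and 4 lower in siEchs1 than in siCon, where 11% of all genes tested were higher and 9.31% lower, so that the members' shares were near or below the background. The median member change was 0.20, against 0.15 for all genes. No RNA polymerase I gene was called. The 6 higher genes were Noc4l, Bms1 and Utp20 of the small subunit group and Ddx56, Gnl2 and Rrp1b of the large subunit group. The 4 lower genes were Nop10 and Gar1 of the box H/ACA particle and Nop16 and Gtpbp4 of the large subunit group. Every siEchs1 library was above every siCon library for 13 members and below for 7 (all genes tested: 19% and 15.5%).

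Noc4l, which acts with NOP14 in 40S assembly (chromosome 5, 110648418 to 110653417, minus strand), was at 91.2, 169 and 26.1 FPKM in the siEchs1 E2C libraries against 7.27, 7.36 and 5.37 in siCon, a difference of 3.30 ± 0.51 (SE) (adjusted p = 0.0014). Bms1 (chromosome 6, 118383381 to 118419474, minus strand) was at 51.8, 47.5 and 13.1 FPKM (log2 2.35 ± 0.49 (SE), adjusted p = 0.00641) and Ddx56 at 18.3, 47.9 and 10.4, against 4.23, 3.53 and 5.41 in siCon (log2 2.05 ± 0.45 (SE), adjusted p = 0.0082). All 3 were lowest in the third siEchs1 library and still above every siCon library there. Rrp1b, a nucleolar protein that resembles RRP1, was at 21.9, 29.8 and 28.4 FPKM against 12.7, 6.99 and 11.1 (log2 1.32 ± 0.35 (SE), adjusted p = 0.0192). Gnl2, a GTPase of pre-60S export, was at 62.2, 46.7 and 8.74 FPKM against 5.61, 4.42 and 11.4, so that the third siEchs1 library lay inside the range of siCon (log2 2.02 ± 0.59 (SE), adjusted p = 0.0314). Utp4 was also split, at 172, 248 and 10.6 FPKM against 15.2, 14.7 and 14.1, with the third siEchs1 library below every siCon library. It was not called (log2 2.35 ± 0.85 (SE), adjusted p = 0.0704). The summed oocyte transcripts were also higher in the first and second siEchs1 library than in the third, as given above.

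On the lower side, Gtpbp4 (chromosome 13, 8966331 to 8996083, minus strand) was at 48.2, 61.5 and 57.7 FPKM in siEchs1 against 217, 206 and 256 in siCon, 4.05 times lower by the means (log2 -2.0 ± 0.30 (SE), adjusted p = 0.00107). Nop16, a small protein of early pre-60S particles (chromosome 13, 54584185 to 54590090, minus strand), was at 5.58, 10.8 and 18.3 FPKM against 59.95, 56.3 and 51.7, 4.85 times lower (log2 -2.31 ± 0.46 (SE), adjusted p = 0.00506). Both were below siCon in all 3 libraries, the third included. Gar1 was at 8.50, 4.03 and 4.60 FPKM against 16.8, 16.1 and 18.7 (log2 -1.50 ± 0.41 (SE), adjusted p = 0.0233) and Nop10 at 116, 68.6 and 61.4 against 145, 262 and 215 (log2 -1.34 ± 0.38 (SE), adjusted p = 0.026). Dkc1, their partner, was at 134, 114 and 24.2 FPKM against 189, 219.6 and 178, also without overlap, with adjusted p = 0.0657. For the RNA polymerase I genes the changes ran from -0.77 (Polr1c) to 0.72 (Mybbp1a), the lowest adjusted p being 0.205, for Ubtf.

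The E2C counts depended on single libraries. Without the third siEchs1 E2C library 17 members were higher and 6 lower, where 23.2% and 14% of all genes tested were higher and lower. Utp4 (3.73 ± 0.35 (SE)), Wdr12 (2.07 ± 0.37 (SE)), Ltv1 (1.87 ± 0.35 (SE)) and Nop56 (1.13 ± 0.26 (SE)) were then among the higher genes, and Npm1 (-1.0 ± 0.30 (SE)) and Tsr1 (-1.08 ± 0.34 (SE)) among the lower ones. That fit has 2 siEchs1 libraries at E2C. Without the second siCon E2C library 3 were higher and 2 lower, where 4.90% and 5.44% of all genes were. Without the second siEchs1 E2C library the counts were again 3 and 2, where 5.05% and 5.85% of all genes were higher and lower. Without the third siCon E2C library 2 were lower, where 5.12% of all genes were. Scaling moved the split as well: 4 higher and 5 lower after quantile normalization, and 11 higher and 4 lower after rescaling without mitochondrial and ribosomal RNA, under which all genes moved from 1934 higher and 1644 lower to 2733 and 1233. The share of mitochondrial transcripts was lower in siEchs1 E2C than in siCon E2C in every library.

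**Figure D3:**
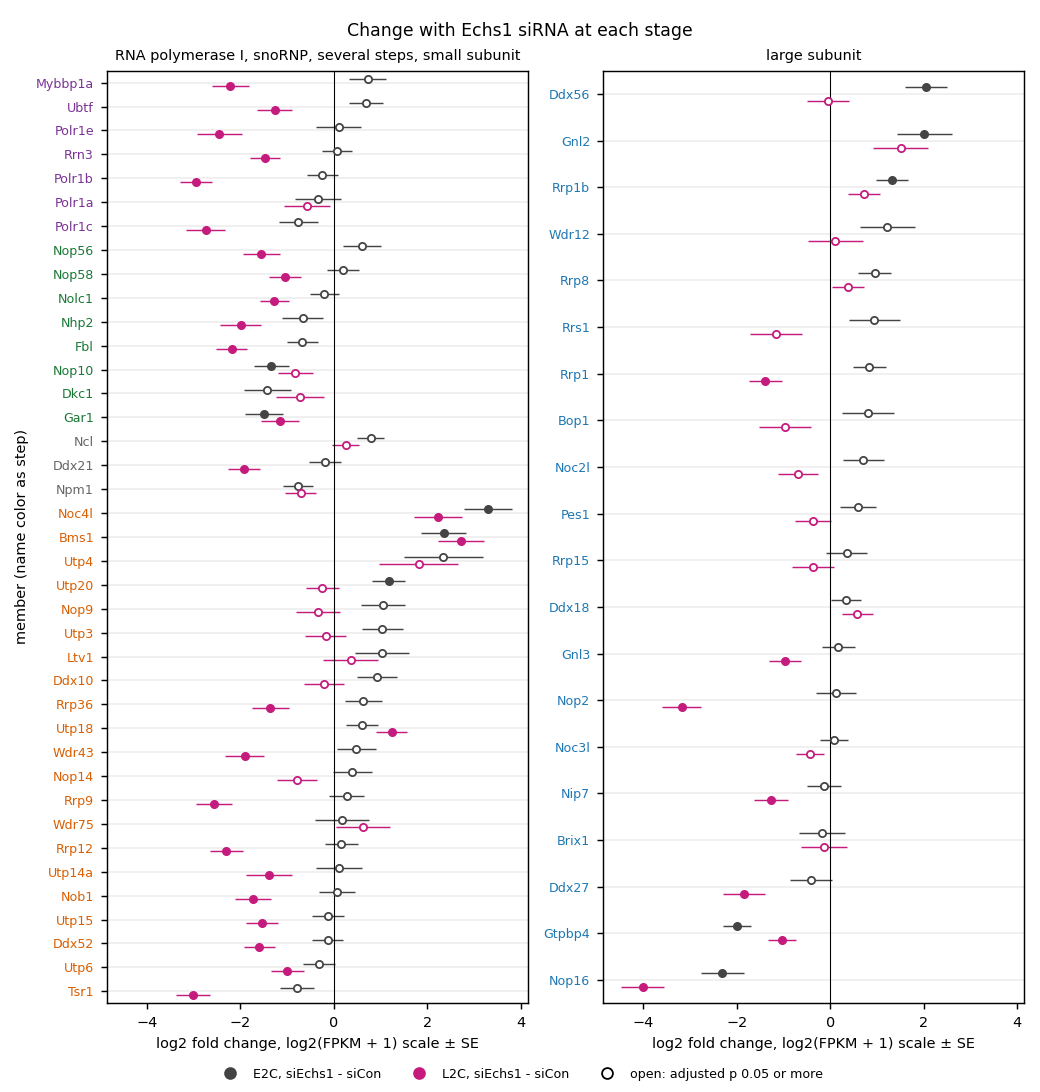
Difference between siEchs1 and siCon for each member on the log2(FPKM + 1) scale (x axis, point with its SE), at E2C (dark) and at L2C (pink), with members on the y axis by step and filled points for an adjusted p under 0.05. At L2C 30 filled points lie to the left of 0 and 3 (Noc4l, Bms1 and Utp18) to the right.

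At L2C the factors were mostly lower in siEchs1: 30 of 59 members were lower than in siCon and 3 higher, where 26.9% of all genes tested were lower and 21.9% higher. The median member change was -0.99, against -0.08 for all genes. The lower members were 6 of 7 RNA polymerase I genes, 6 of 8 snoRNP genes, 1 of 3 of several steps, 10 of 21 small subunit genes and 7 of 20 large subunit genes. Every siEchs1 library was below every siCon library for 35 members and above for 6 (all genes tested: 32.6% and 30.5%). This comparison and the change from E2C to L2C in siCon use the same 3 siCon L2C libraries.

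Polr1b was at 2.88, 4.10 and 2.34 FPKM in siEchs1 L2C, 10.03 times below its siCon L2C mean of 31.2 ± 9.26 FPKM (SD, n = 3) (log2 -2.95 ± 0.33 (SE), adjusted p = 7.46e-05). It was the lowest member of that group. Polr1c (chromosome 17, 46243920 to 46248054, minus strand) was at 45.3, 44.5 and 18.2 FPKM against 229, 163 and 321 (log2 -2.75 ± 0.42 (SE), adjusted p = 0.000286), Mybbp1a at 8.47, 10.5 and 5.81 against 40.05, 27.2 and 63.3 (log2 -2.22 ± 0.39 (SE)) and Polr1e at 17.1, 25.2 and 14.8 against 63.8, 145 and 129 (log2 -2.45 ± 0.49 (SE)). None of these had overlapping libraries. Rrn3 (chromosome 16, 13780708 to 13814839, plus strand) was at 23.1, 34.6 and 29.5 FPKM, 2.88 times below siCon (log2 -1.48 ± 0.32 (SE), adjusted p = 0.00238), and Ubtf was lower as well (log2 -1.27 ± 0.37 (SE), adjusted p = 0.0131). Polr1a was at 3.62, 11.6 and 6.80 FPKM, overlapping siCon, and was not called (adjusted p = 0.355).

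All 8 snoRNP genes were lower in every siEchs1 L2C library than in any siCon L2C library, and 6 passed the test. Fbl differed by log2 -2.19 ± 0.33 (SE) (adjusted p = 0.000257) at the levels given above, and Nop56 was at 129, 133 and 112 FPKM and Nop58 at 99.9, 159 and 124, with differences of -1.55 ± 0.40 (SE) and -1.05 ± 0.35 (SE). Nhp2 was at 65.2, 66.2 and 47.3 FPKM against 169.6, 212 and 368 (log2 -1.99 ± 0.44 (SE), adjusted p = 0.00278). The differences of Gar1 and Nolc1 were -1.15 ± 0.41 (SE) and -1.27 ± 0.31 (SE). The pair that did not pass was Dkc1, at 185, 204 and 184 FPKM (adjusted p = 0.258), and Nop10, at 65.4, 85.9 and 77.1 (adjusted p = 0.0891). Ddx21 was at 4.09, 5.71 and 3.16 FPKM against 18.03, 12.6 and 28.8 (log2 -1.92 ± 0.34 (SE), adjusted p = 0.000767). Ncl was at 124, 159.9 and 175 FPKM, overlapping siCon (adjusted p = 0.48), and Npm1 at 555, 739 and 699, below siCon in all libraries (adjusted p = 0.0893).

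The lowest small subunit gene relative to siCon was Tsr1, a late 40S assembly factor (chromosome 11, 74898071 to 74909342, plus strand), at 5.75, 6.10 and 3.70 FPKM against 41.5, 52.5 and 51.4 (log2 -3.02 ± 0.36 (SE), adjusted p = 9.57e-05). Rrp9 was at 35.04, 32.3 and 24.5 FPKM (log2 -2.56 ± 0.38 (SE), adjusted p = 0.000256), and Rrp12 at 5.78, 4.31 and 3.93 (log2 -2.30 ± 0.35 (SE), adjusted p = 0.000313). Nob1 was at 31.3, 25.5 and 25.5 FPKM (log2 -1.73 ± 0.39 (SE), adjusted p = 0.00288), and Wdr43, Ddx52, Utp15, Utp14a, Rrp36 and Utp6 were lower too, with log2 differences from -1.91 (Wdr43) to -0.99 (Utp6). All 10 lower small subunit genes were without overlap between the groups. The 3 higher genes were of the same step. Bms1 was at 46.3, 53.6 and 60.7 FPKM against 11.96, 4.48 and 6.79, 6.91-fold (log2 2.72 ± 0.49 (SE), adjusted p = 0.000763), and Noc4l at 200.2, 152 and 146 against 32.6, 32.1 and 38.5, 4.83-fold (log2 2.23 ± 0.51 (SE), adjusted p = 0.00357). Utp18 (chromosome 11, 93859243 to 93885766, minus strand), of the UtpB complex, was at 48.3, 67.5 and 74.4 FPKM against 30.1, 21.3 and 27.2, 2.42-fold (log2 1.24 ± 0.34 (SE), adjusted p = 0.00967). Utp4 was above siCon in all libraries, 277, 220.3 and 216 FPKM against 78.2, 38.6 and 96.95, with adjusted p = 0.0965. The summed oocyte transcripts, too, were above siCon in all 3 siEchs1 L2C libraries, and their part in these 4 values was not tested.

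Among large subunit genes, Nop16 showed the largest difference of all members, at 10.1, 12 and 3.90 FPKM in siEchs1 against 131, 105 and 210.1 in siCon, 17.2 times lower (log2 -4.01 ± 0.46 (SE), adjusted p = 7.88e-05). Nop2 was at 18.1, 16.9 and 6.77 FPKM, 9.24 times lower (log2 -3.18 ± 0.43 (SE), adjusted p = 0.000151). Ddx27, Rrp1, Nip7, Gtpbp4 and Gnl3 were lower too, with log2 differences of -1.85, -1.39, -1.27, -1.02 and -0.97. None of these 7 had overlapping groups. The PeBoW genes were not called: Pes1 was at 50.5, 53.3 and 54.2 FPKM, below siCon in every library (adjusted p = 0.443), Bop1 at 23.6, 15.2 and 8.32 (adjusted p = 0.169) and Wdr12 at 18.2, 26 and 21.5 (adjusted p = 0.891). Bop1 and Wdr12 overlapped siCon. Gnl2 was above siCon in all libraries, at 65.02, 68.8 and 70.1 FPKM against 34.7, 17.6 and 20.3 (log2 1.51 ± 0.59 (SE), adjusted p = 0.0505). The count of lower members ran from 23 to 35 when single libraries were left out, and that of higher members was 5 without the third siEchs1 E2C library (27.7% of all genes higher and 31% lower), which enters this comparison through the shared variance.

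**Figure D4:**
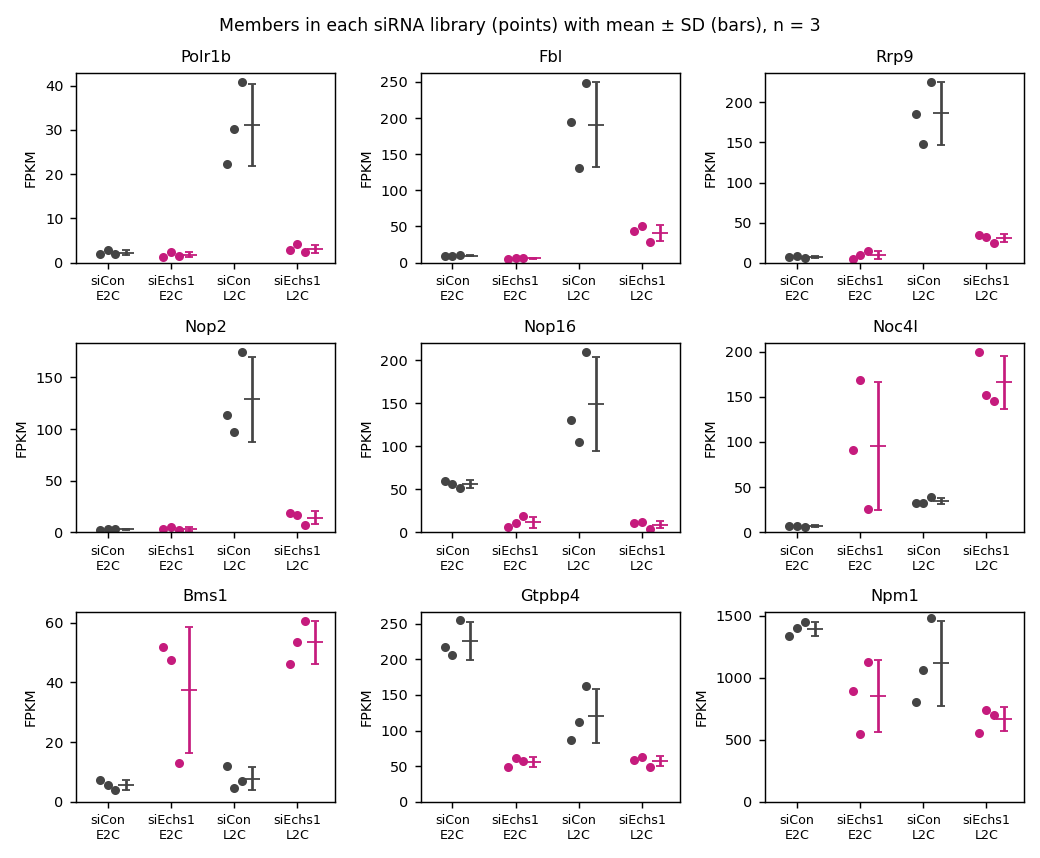
FPKM (y axis, linear, from 0) of 9 members in each of the 12 siRNA libraries (points) with the mean ± SD of each group of 3 (bars). By group mean Polr1b, Fbl, Rrp9, Nop2 and Nop16 stand highest in siCon L2C, Noc4l and Bms1 in siEchs1 L2C, and Gtpbp4 in siCon E2C, while the siCon L2C and siCon E2C values of Npm1 overlap.

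Whether the siRNA effect differed between the stages was tested directly as the difference of the 2 effects (L2C minus E2C). It was negative for 19 of 59 members and positive for none, where 11.6% of all genes tested were lower and 5.65% higher, and 31 of 59 members had an unadjusted p under 0.05, against 33.7% of all genes tested. The median member value was -1.24, against -0.21 for all genes. The genes that passed were 6 of 7 RNA polymerase I genes (all but Polr1a), 2 of 8 snoRNP genes (Fbl and Nop56), Ddx21, 7 of 21 small subunit genes and 3 of 20 large subunit genes. Nop2 had the largest value, -3.31 ± 0.60 (SE) (adjusted p = 0.00621), followed by Mybbp1a (-2.94 ± 0.55 (SE), adjusted p = 0.00679), Rrp9 (-2.83 ± 0.54 (SE), adjusted p = 0.00716) and Polr1b (-2.70 ± 0.47 (SE), adjusted p = 0.00543). These genes did not differ detectably between siEchs1 and siCon at E2C, where the lowest adjusted p of the 4 was 0.212, for Mybbp1a. Polr1e came next, at -2.55. Rrp12, Rrp1 and Nop56 were among the other genes that passed, at -2.46 ± 0.50 (SE), -2.23 ± 0.49 (SE) and -2.15 ± 0.57 (SE). Ddx56 passed from the other side, being higher at E2C and near 0 at L2C (-2.09 ± 0.63 (SE), adjusted p = 0.0398). Nop16, lower at both stages, did not pass (-1.70 ± 0.65 (SE), adjusted p = 0.0896), nor did Noc4l (adjusted p = 0.32), Bms1 (0.74) or Utp18 (0.379), which were higher at L2C.

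The count of 19 moved with most libraries. It was 9, 9 and 8 without the first, the second or the third siCon E2C library, where 7.89%, 6.67% and 5.80% of all genes were negative. It was 11 and 8 without the first or the third siCon L2C library (all genes: 7.52% and 6.80%), 11 and 7 without the first or the third siEchs1 L2C library (9.73% and 4.81%), and 31 without the third siEchs1 E2C library, where 16% of all genes tested were lower and 7.46% higher. It was 8 with no filter on low values, where 3.36% of all genes were negative. No member was positive in any of these. After quantile normalization 16 members were negative, and all genes split into 1600 higher and 1558 lower, against 997 and 2042 before.

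The rest of the pathway, 100 genes on lists of other factors of each step, the RNA exosome and the Myc family, was counted by the same test. From E2C to L2C in siCon 61 of the 100 rose and 3 fell (all genes: 35.8% and 14.4%). Those that rose included Rrp7a of the small subunit processome (4.72 on the log2 scale), the exosome subunit Exosc6 (4.06) and the polymerase subunit Cd3eap (4.20). In siEchs1 at L2C 26% were lower and 7% higher, with a median of -0.49, so that the share of lower genes was at the 26.9% of all genes and that of higher genes below the 21.9%. The lower genes included Mak16 (-3.47), Ttf1, the terminator of ribosomal DNA transcription (-3.11), Nol11 (-3.07) and Mdn1, the large AAA ATPase of pre-60S remodelling (-2.87). The higher ones included Exosc4 (2.90), Ddx24 (1.88) and the assembly factor gene Shq1 (1.86). By step, 3 of the 9 other RNA polymerase I genes were lower at L2C and 0 higher, with a median of 0.08. Of the 6 other snoRNP genes 2 were lower and 2 higher, with a median of -0.49. Of the other small subunit genes 21.2% were lower and 3.03% higher, and of the other large subunit genes 31.4% and 5.71%. At E2C 13% of the 100 were higher and 6% lower, near or below the 11% and 9.31% of all genes. The difference between the stages was negative in 20% and positive in 1%, against 11.6% and 5.65% of all genes. Myc, a known activator of ribosome biogenesis genes, rose by 2.65 on the log2 scale from E2C to L2C in siCon and was lower in siEchs1 at L2C (log2 -3.34). Of the 4 genes on the Myc family list, 2 rose in siCon, and 1 was lower and 0 higher in siEchs1 at L2C. The part of Myc in the changes of the members was not tested. Of 85 cytosolic ribosomal protein genes, 28 (32.9%) rose from E2C to L2C in siCon, a share below the 35.8% of all genes, and 3 (3.53%) fell, against 14.4%. Their median change was 1.06, above the 0.51 of all genes. In siEchs1 at L2C 5 (5.88%) were higher and 9 (10.6%) lower, both below the shares of all genes, with a median of -0.05 against -0.08 for all genes.

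In the treatment experiment the question was whether acetate or crotonate, given to zygotes, changed the factors at E2C. Both are sodium salts of short-chain fatty acids. Crotonate has the longer chain and a carbon-carbon double bond that acetate lacks. The doses are not given in the labels, so equal doses cannot be taken for granted. Of 57 members tested (Nop9 and Noc2l were too low), 1, the 40S export factor gene Ltv1, was lower with crotonate than with DMSO and none was higher, where 0.319% of all 13789 genes tested were lower and 0.21% higher. The median member change was -0.70, against -0.15 for all genes. Both crotonate libraries were below both DMSO libraries for 38 members and above for 5 (all genes tested: 38.4% and 19.2%). With 2 libraries per group, 23 of 57 members had an unadjusted p under 0.05, against 16.3% of all genes tested.

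Ltv1 was at 22.4 and 21.6 FPKM with DMSO, 10.9 and 17.6 with acetate and 3.50 and 4.09 with crotonate, a difference between crotonate and DMSO of -2.26 ± 0.35 (SE) (adjusted p = 0.0447). Bms1 was at 52.1 and 79.3, 18.1 and 36.99 and 11.04 and 5.94 FPKM in the same order (log2 -2.84 ± 0.46 (SE), adjusted p = 0.0534), and Gnl3 at 39 and 54.2, 37.9 and 36.02 and 12.1 and 10.6 (log2 -1.93 ± 0.31 (SE), adjusted p = 0.0533). In all 3 genes both crotonate libraries were below all 4 others. Gnl2 had the largest difference of all members, from 17.4 and 36.1 to 2.05 and 2.16 FPKM, but its DMSO libraries lay far apart (log2 -3.07 ± 0.63 (SE), adjusted p = 0.0769). Among the modification factors, Dkc1 was at 477 and 468 FPKM with DMSO and 292 and 213 with crotonate, and Nolc1 at 33.98 and 39.4 and 12.7 and 11.3, with adjusted p = 0.163 and 0.127. Rrn3 was at 32.3 and 35.8 FPKM against 32.7 and 29.6, with overlapping groups (95% interval of the log2 difference -0.85 to 0.60), and for Fbl the interval was -0.85 to 0.78. Nop2 was higher in both crotonate libraries, 1.82 and 5.55 FPKM against 0.86 and 0.59, without passing the test (adjusted p = 0.203).

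The call of Ltv1 and the count around it depended on which libraries shared the fit. With the 4 DMSO and crotonate libraries alone 18 members were lower, where 6.82% of all genes were lower and 2.53% higher. Without the first or the second acetate library 18 and 14 were lower, where 6.61% and 6% of all genes were lower (2.28% and 2.06% higher). Without any 1 of the DMSO or crotonate libraries, with a pseudocount of 0.1, with no filter, after rescaling, or without the mean-variance trend, none was. The 2 acetate libraries differed more from each other (Spearman 0.87) than the pairs with DMSO (0.93) or crotonate (0.93), and mitochondrial transcripts took 20.7% and 11.9% of FPKM in them, against 12.2% to 13.4% with DMSO and 16.7% to 19.8% with crotonate. The summed oocyte transcripts were at 6629 to 7203 FPKM with DMSO, 8135 to 8319 with acetate and 7689 to 7714 with crotonate. Oog1 and Oosp1 were higher in both crotonate libraries than in both DMSO libraries (Oog1 at 3699 and 4428 FPKM against 2724 and 3020). All other markers of that list were lower in both crotonate libraries than in both DMSO libraries, for example Gdf9 at 158 and 132 against 228 and 271. The part of these values in the changes of the members was not tested.

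With acetate no member was called against DMSO by limma, where 0.00725% of all genes tested were higher and 0.058% lower. The median member change was -0.30, against -0.08 for all genes, and 5 of 57 members had an unadjusted p under 0.05, against 5.96% of all genes tested. Bms1 (-1.28 ± 0.46 (SE)), Polr1e (-1.22 ± 0.45 (SE)) and Polr1a (-0.83 ± 0.33 (SE)) were among them, each with adjusted p = 0.784. Polr1a was at 4.15 and 4.61 FPKM with DMSO and 1.92 and 2.13 with acetate, and Polr1e at 13.03 and 14.2 and 3.23 and 8.28. Without the second acetate library 5 of 56 members tested were lower, where 5.53% of all genes were lower. Crotonate and acetate were also compared directly, as 1 pair. Of 57 members 1 was lower with crotonate, Gnl3 (-1.63 ± 0.31 (SE), adjusted p = 0.0493), and none higher, where 0.841% and 1.02% of all genes were. Ltv1 (-1.64 ± 0.35 (SE), adjusted p = 0.0662) and Utp18 (-1.11 ± 0.30 (SE), adjusted p = 0.0945) were next and did not pass. For 43 of the 57 members the 95% interval of the difference included 0, for example -0.55 to 1.09 for Polr1b, -0.38 to 1.08 for Rrn3 and -1.19 to 0.10 for Dkc1, widths that leave room for changes of about 1 on the log2 scale. Gnl3 was called without the first acetate library, among 9 lower members where 3.98% of all genes were lower, and without the second, among 5 lower members where 5.58% were. It was not called without any 1 of the other 4 libraries, with a pseudocount of 0.1, with no filter, after quantile normalization or rescaling, without the trend or in the 4 libraries alone. The comparisons with DMSO share the DMSO libraries.

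**Figure D5:**
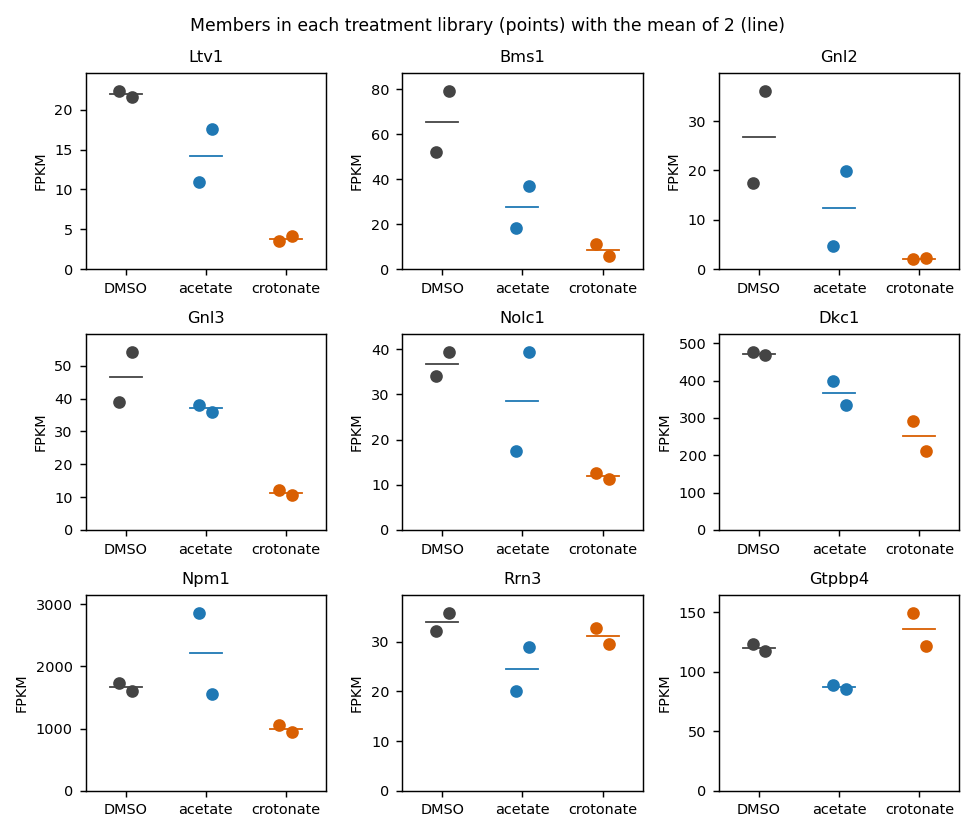
FPKM (y axis, linear, from 0) of 9 members in each of the 6 treatment libraries (points) with the mean of the 2 libraries of a group (line). Both crotonate libraries lie below both DMSO libraries for Ltv1, Bms1, Gnl2, Gnl3, Nolc1, Dkc1 and Npm1, while for Rrn3 and Gtpbp4 the DMSO and crotonate values overlap.

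The files keep no strand. In GENCODE M21 (build GRCm38), 20 of the 59 members share exon bases with another gene, in every case on the opposite strand, among them Nop56 (Idh3b), Rrp9 (Parp3), Tsr1 (Srr), Gnl3 (Pbrm1), Mybbp1a (Spns2), Gnl2 (Dnali1), Bop1 (Mroh1), Noc2l (Samd11) and Nop9 (Cideb). Reads from such partners cannot be told apart from those of the member. Within their bounds 7 members host small nucleolar RNAs (Nop56, Nop58, Dkc1, Ncl, Wdr43, Tsr1 and Gnl3), 11.9% of the 59 against 1.74% of 13229 protein-coding genes tested. Of these 7, 5 were lower in siEchs1 at L2C (Nop56, Nop58, Wdr43, Tsr1 and Gnl3), beside 30 of all 59 members and 26.9% of all genes.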

How the data were processed

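The deposited tables hold FPKM per gene, made by the authors. The submitters' processing notes name cutadapt 1.16, STAR and the build mm10. Which program and annotation gave the FPKM values is not given in the sources used here. Sequencing depth is therefore unknown: low values lay near whole fragments in 38.0% to 50.9% of cases, against 30% by chance, so read counts were not recovered, and FPKM totals ran from 708113 to 1123993 per library.

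Symbols that occurred more than once (107) and 27 that had been turned into dates were removed, which left 55098 genes. Genes with at least 1 FPKM in 3 of 12 siRNA libraries or in 2 of 6 treatment libraries were kept. Values were tested as log2(FPKM + 1) with limma 3.58.1 (R 4.3.3, robust empirical Bayes with a mean-variance trend), fitting each experiment's libraries together and adjusting p-values over all genes tested by Benjamini-Hochberg. In simulated data for siEchs1 against siCon at E2C, with 16530 genes, 4.48%, 47.8% and 92.4% of genes changed by 1, 2 and 4 on the log2 scale were called. For crotonate against DMSO, with 13100 genes, the shares were 0%, 40.3% and 83.3%, so changes of about 1 were mostly missed in both simulations. Each simulation changed 67, 67 and 66 genes by 1, 2 and 4, all drawn from genes of higher level. In the siRNA data at E2C many more genes were called (1934 higher and 1644 lower). The adjustment is less strict there, so the simulated shares need not hold for that comparison.

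The members and lists were chosen with earlier results of these data known. Named members are a fixed set of 18, the called members of each step and direction with the smallest adjusted p and no overlap between libraries, the 3 with the smallest adjusted p in each treatment comparison, and members against their step's direction. Other members were named where they completed a count, after their values were seen. Other pseudocounts, filters, normalizations, models and left-out libraries were tried. For siEchs1 L2C the numbers of replicates 2 and 3 in the sample titles and in the file headers disagree, and the titles were used.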

Additional observations from a re-analysis of the deposited data

Results flagged for a closer look

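The siRNA effect, siEchs1 minus siCon, differed between L2C and E2C in 19 members by the test of the difference itself (limma, adjusted p under 0.05), and the difference is given on the log2 scale as L2C minus E2C. All 19 were negative. In the RNA polymerase I group these were Mybbp1a (-2.94), Polr1b (-2.70), Polr1e (-2.55), Polr1c (-1.98), Ubtf (-1.96) and the initiation factor Rrn3 (-1.56). In the snoRNP group they were Nop56 (-2.15) and Fbl (-1.52), and among the factors of several steps the helicase gene Ddx21 (-1.73). In the small subunit group they were Rrp9 (-2.83), Rrp12 (-2.46), Wdr43 (-2.39), Tsr1 (-2.22), Rrp36 (-1.99), the endonuclease gene Nob1 (-1.81) and Ddx52 (-1.47). In the large subunit group they were Nop2 (-3.31), Rrp1 (-2.23) and Ddx56 (-2.09). Groups of 2 or 3 libraries are too small to test a single library as an outlier.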

How the results depend on the processing

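Over all alternatives no named member that passed the test changed direction: of 1950 values for the 99 called results, 1701 kept the call and 249 lost it. Counts of members called moved as follows. With no filter on low values, 2 were lower at E2C, the difference between the stages was negative in 8, and from E2C to L2C in siEchs1 10 were higher and 0 lower. After quantile normalization 5 were higher at L2C and 8 rose in siEchs1. After rescaling without mitochondrial and ribosomal RNA 11 were higher at E2C, and 0 fell between the stages in siCon or in siEchs1. With the compared libraries alone 2 were higher at E2C, 5 were higher at L2C, 6 rose and 0 fell in siEchs1, and 18 were lower with crotonate than with DMSO. The count lower with crotonate was 0, against DMSO and against acetate alike, with a pseudocount of 0.1, with no filter, after rescaling and without the trend, and 0 against acetate with the compared libraries alone. Replicate numbers in the titles did not pair the libraries: deviations of same-numbered libraries correlated from -0.101 to 0.111 in the siRNA experiment and from -0.0957 to 0.16 in the treatment experiment. By the numbers in the file headers the siRNA range was -0.0946 to 0.224, with a median of -0.0228. With the replicate block the difference between the stages was negative in 11 and 0 were lower with crotonate than with acetate. Leaving out 1 library at a time gave 3 to 17 higher and 2 to 6 lower at E2C, 3 to 5 higher and 23 to 35 lower at L2C, 7 to 31 negative differences between the stages, 37 to 49 higher and 0 to 1 lower from E2C to L2C in siCon, and 7 to 18 higher and 0 to 1 lower in siEchs1. It gave 0 to 18 lower with crotonate than with DMSO, 0 to 5 with acetate than with DMSO and 0 to 9 with crotonate than with acetate. Where a group was left with 1 library, that library was assumed to vary like the others. Fewer genes tested, fewer libraries or changed totals follow from how these alternatives are built, and the cause of the other shifts was not tested. Depth is unknown, so no counting limit can be given for low members.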
